A study of Mus musculus with 6 samples.

Results

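Nuclear receptors for thyroid hormone and for retinoic acid, together with the corepressor Ncor1, were followed through captured, methylated DNA of the mouse heart at 2 ages. The 9 genes are the thyroid hormone receptors Thra and Thrb, the retinoic acid receptors Rara, Rarb and Rarg, the retinoid X receptors Rxra, Rxrb and Rxrg, and Ncor1. Their regions were taken from the deposited table by exact gene symbol, with repeated intervals collapsed. They came to 42 regions of 213957 in all, and of 68634 that carry any gene name. Rxra had 9 regions, Rara 7, Rarg and Rxrg 6 each, Thra and Ncor1 4 each, Thrb and Rxrb 3 each. Rarb was absent, since no row carries its symbol.

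The samples were ventricles of male C57BL/6 mice, snap-frozen at postnatal day 1 (P1) or day 14 (P14), with 3 libraries at each age. No mouse carried an engineered allele or received a treatment, per the labels. The labels name the tissue as left ventricle, while the collection protocol describes ventricles with the septum and without atria. They do not say whether a library came from 1 animal or several, so p-values set the age difference against the spread between these libraries. Fragmented DNA was enriched with a protein domain that binds methylated CpG dinucleotides and then sequenced (MBD-seq). The readout is a read count per region, not a methylation level, and it gives no RNA level. A shift in the mix of cell types and a change of methylation within a cell type cannot be told apart in whole ventricle.

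Thyroid hormone receptors and retinoic acid receptors are transcription factors that bind DNA mostly as pairs with a retinoid X receptor. Without hormone, such pairs can hold corepressor complexes built on NCOR1, which carry histone deacetylase activity, and hormone binding exchanges these for coactivators. Circulating thyroid hormone rises after birth in rodents and is known to drive the switch of heart muscle from fetal to adult isoforms. Retinoic acid acts mainly earlier, in the patterning of the heart tube and the growth of the ventricular wall.

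The libraries held 16284216 to 21512072 reads over distinct regions. Gene-named regions took 7.58% to 8.77% of the reads at P1, and 24.0%, 13.0% and 11.2% in P14 replicates 1, 2 and 3. Because P14 replicate 1 stood apart and all P14 libraries lay above all P1 libraries in this share, changes were measured on more than 1 scale. The first set gene-named regions against each other (CPM, read counts scaled to the total over these regions with TMM factors). Another fitted all distinct regions together, and in a further one gene-named regions were scaled to the reads outside them. P1 replicate 1 also stood apart, with 1457 gene-named regions without a read against 22 and 21 in the other P1 libraries.

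The starts of the members were compared first, since CpG content differs widely among gene starts and the capture reads only methylated CpGs. RefSeq windows of 300 bases (250 before and 50 after a gene start, build GRCm38.p6) matched 8 of the 9 members, with 17 windows. Only 1 of the 17 overlapped a gene-named region, the downstream start of Thrb. Over all 32851 RefSeq windows, 5.75% did so. The share was 4.55% for windows with 0 to 4 CpGs, 13.4% for 5 to 9 and 7.49% for 10 to 19. It was 1.03% for windows with 20 or more CpGs, to which 7 of the members' windows belonged. The richest was the upstream Rxra window with 55 CpGs, followed by 47 and 37 at Rxrb, 37 at the upstream Thrb start and 36 at the upstream Ncor1 start.

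The 250 bases before each of both Thrb starts are shown because these starts differ both in CpG content and in overlap with a gene-named region. CpGs are in capitals, 30 in the upstream stretch (chr14:17660710-17660959, + strand) and 2 in the downstream one (chr14:17981394-17981643, + strand).
Thrb upstream start: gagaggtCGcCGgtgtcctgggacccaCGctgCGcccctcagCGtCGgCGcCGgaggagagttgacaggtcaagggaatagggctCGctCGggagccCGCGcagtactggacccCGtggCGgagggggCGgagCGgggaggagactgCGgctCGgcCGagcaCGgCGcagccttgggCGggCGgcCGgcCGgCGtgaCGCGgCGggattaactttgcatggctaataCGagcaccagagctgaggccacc
Thrb downstream start: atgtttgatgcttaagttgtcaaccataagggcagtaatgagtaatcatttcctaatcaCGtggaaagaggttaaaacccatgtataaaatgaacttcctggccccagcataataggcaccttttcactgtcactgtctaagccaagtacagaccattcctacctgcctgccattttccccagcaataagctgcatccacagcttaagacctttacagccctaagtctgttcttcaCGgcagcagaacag

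The upstream Thrb start lay in a stretch of 237608 bp without a gene name, which held 3.57 to 5.66 reads per kb in the 6 libraries. That density is over the whole stretch, and reads at the start itself were not counted. The downstream start lay in the third Thrb region (chromosome 14, 17981449 to 17982259, 811 bp), which covers 195 of the 250 bases shown. That region had P1 counts of 0, 13 and 12 reads and P14 counts of 46, 25 and 12, for replicates 1 to 3 in this and all later sentences. The empty library was P1 replicate 1, and the ages overlapped. On the CPM scale the region stood at 5.69 ± 4.93 at P1 and 8.65 ± 1.72 at P14 (SD, n = 3). Its log2 change was 0.59 (SE 0.58, unadjusted p = 0.318), and without both replicates 1 it was -0.016.

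The other 16 windows lay in stretches without a gene name, at 1.33 to 16.8 reads per kb over windows and libraries. Of these, 3 came within 1 kb of a region of their own gene: both Rxrb windows and the upstream Rxrg window, at 547, 879 and 265 bp.

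**Figure D1:**
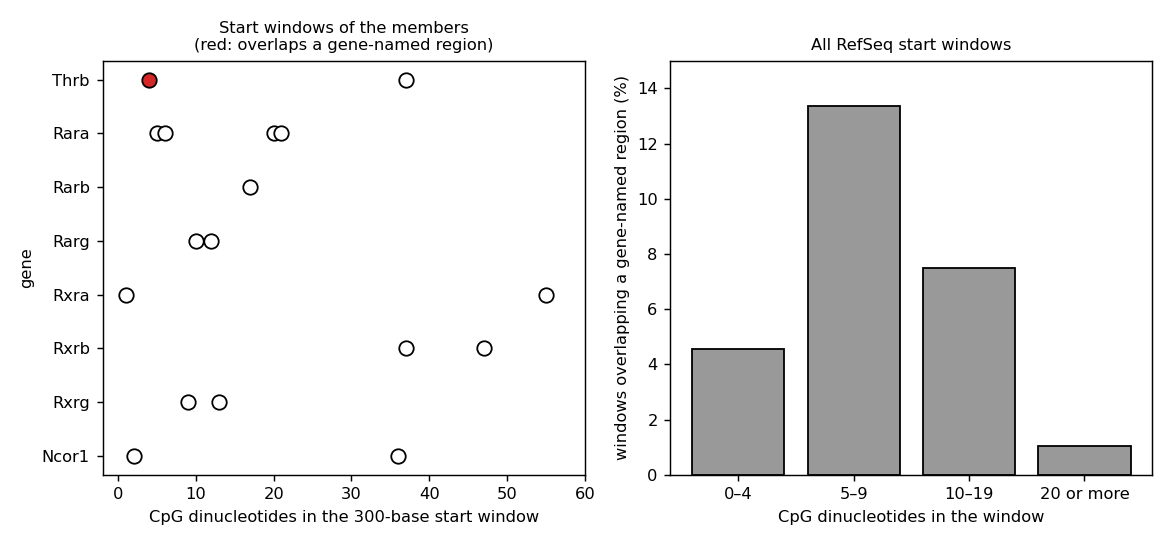
Left, CpG dinucleotides (horizontal axis) in each of the 17 start windows of 300 bases, by gene. A red point overlaps a gene-named region, and the only red point is the downstream Thrb start with 4 CpGs. Right, the percentage of all 32851 RefSeq windows that overlap a gene-named region, by CpG count, highest at 13.4% for 5 to 9 CpGs and lowest at 1.03% for 20 or more.

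Rarb encodes the retinoic acid receptor whose own gene is a textbook target of retinoic acid, through a response element near its start. The 250 bases before the listed Rarb start (chr14:16575477-16575726, - strand) are shown for this element. A search for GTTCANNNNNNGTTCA on both strands found it from -52 to -37, in capitals.
Rarb start: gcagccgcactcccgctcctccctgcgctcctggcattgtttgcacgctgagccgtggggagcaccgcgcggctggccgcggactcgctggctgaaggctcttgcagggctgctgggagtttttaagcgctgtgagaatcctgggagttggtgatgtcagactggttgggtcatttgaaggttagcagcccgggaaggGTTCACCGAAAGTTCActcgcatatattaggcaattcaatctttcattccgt

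The search pattern, with any base at each N, was found in 25 of 32851 RefSeq windows (0.0761%). It was in none of the other 16 windows of the members. The shorter half-site AGGTCA, searched on both strands, was in 5 of the 17 windows, against 16.3% of all windows. A match is a description of the letters and shows no binding. The Rarb start lay in a stretch of 41185 bp without a gene name, at 5.80 to 7.67 reads per kb in the 6 libraries.

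Although no row is named Rarb, its RefSeq span (chromosome 14, 16430839 to 17082331) held 32 deposited regions, all without a gene name. Of these, 12 were at most 2000 bp wide, a limit chosen after the values were seen. Together they held 12.3, 13.6 and 13.0 reads per kb at P1 and 40.7, 21.4 and 16.1 at P14. The 20 wider stretches in the span held 5.24 to 5.47 reads per kb at P1 and 3.97 to 5.09 at P14. Every P14 library was thus above every P1 library in the narrow regions and below them in the wide ones. In the fit over all regions 10 of the 12 were tested and all 10 had positive log2 changes, 0.20 to 1.21, with a median of 0.75 against 0.74 for gene-named regions. In edgeR's quasi-likelihood test 0 of the 10 passed and 1 had an unadjusted p under 0.05, against 48109 of all 209063 tested regions. DESeq2 called 0 of the 12, and only 45 of all 213957 regions.

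The 42 member regions were 473 to 2760 bp wide, with a median of 866.5 bp against 884 bp for all gene-named regions. Of these, 40 lay inside the RefSeq span of their gene, and the first regions of Rxrb and Rxrg lay before it. The table held no exon or intron borders, so positions within genes are given as distances only. For the 7 genes with a listed strand, 27 of 38 regions lay past the midpoint of the span in the direction of transcription. The share over all gene-named regions was not counted, so this is not shown to be particular to these genes. Rxra had 8 of 9 past the midpoint, Rara 6 of 7 and Ncor1 4 of 4, while Rarg had 2 of 6. The nearest Thrb region lay 186046 bp from the upstream start window of that gene.

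**Figure D2:**
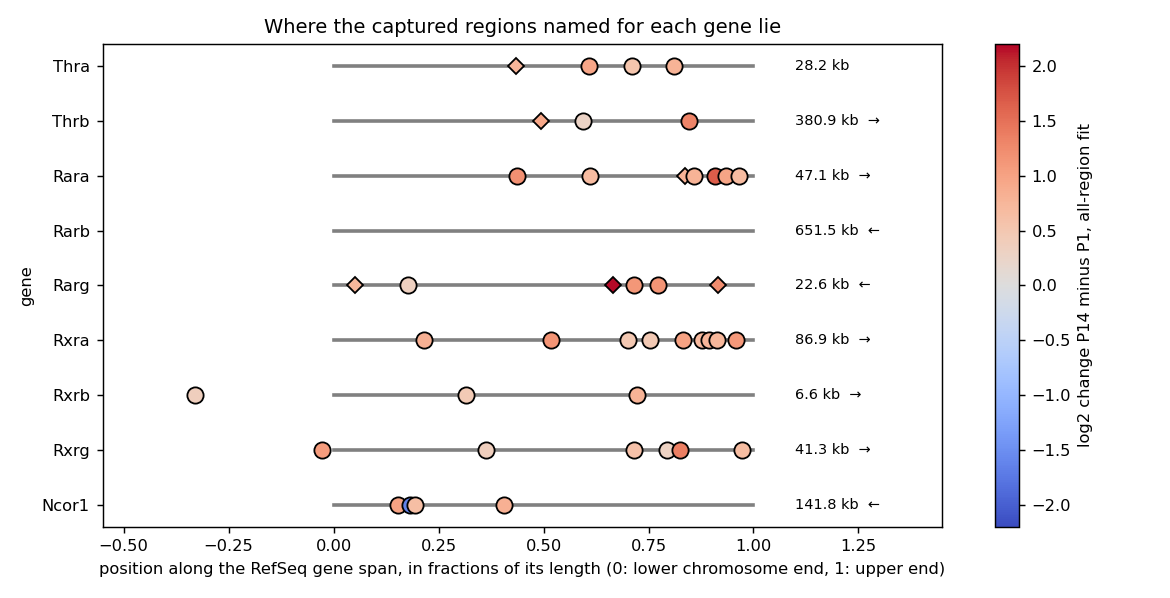
Each line is the RefSeq span of a gene, from its lower to its upper chromosome end (horizontal axis, fraction of the length, which stands at the right with the direction of transcription where listed). Circles are regions tested among gene-named regions and diamonds the 6 removed by the low-count filter. Colours give the log2 change P14 minus P1 in the fit over all regions, from -1.65 for the second Ncor1 region to 2.18 for the third Rarg region.

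The log2 changes of these genes were mostly positive when all regions were fitted together, as were those of other gene-named regions, and no member passed the test there. In the fit over all distinct regions, 41 of the 42 had a positive log2 change, with a median of 0.80 against 0.74 over all gene-named regions. Without P14 replicate 1, 37 were positive and 5 negative, with a median of 0.42 against 0.47. None of the 42 passed edgeR's quasi-likelihood test there, where 0.0% of regions passed. DESeq2 also called 0 of the 42, and only 45 of all 213957 regions. In edgeR's test 12 of the 42 had an unadjusted p under 0.05, against 48109 of all 209063 tested regions. Relative to the deposited stretches next to them, read density had a median ratio of 1.95, 2.37 and 2.15 at P1 and 5.47, 3.61 and 3.31 at P14, over the 37 member regions with such a neighbour. The ratio was lower at P1 than at P14 in every library pair. All gene-named regions had 1.73, 2.07 and 1.95 at P1 and 4.72, 2.97 and 2.72 at P14.

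Set against each other, 36 of the 42 regions passed the low-count filter and were tested. Their median log2 change was 0.03 against 0.00 over all 61355 tested, with 20 positive and 16 negative. Of the 36, 32 lay within 0.5 log2 units of 0, with a median SE of 0.37. A single region passed, the second Ncor1 region, which fell (adjusted p = 0.0421, edgeR's quasi-likelihood test), against 2.41% of all tested regions called, 2.21% lower and 0.2% higher at P14. A share of 1 in 36 is near that background. The ages did not overlap in 3 of the 36, 2 of them higher at P14, where 12.0% of all tested regions did not overlap. In reads divided by each library's total they did not overlap in 20 of the 42, 19 of them higher at P14, against 53.4% of gene-named regions.

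**Figure D3:**
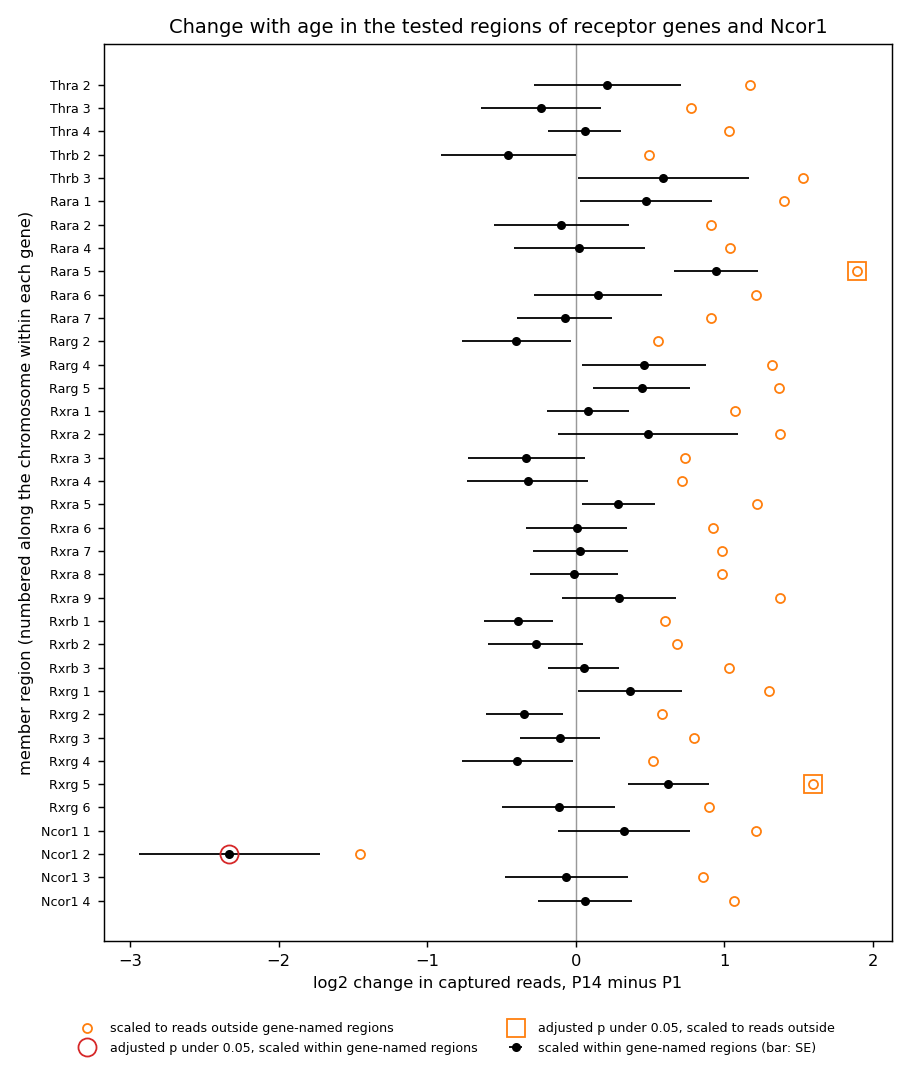
Log2 change from P1 to P14 (horizontal axis) in each of the 36 tested regions, numbered along the chromosome within each gene. Filled points with SE bars set gene-named regions against each other and open circles scale them to the reads outside, which shifts every region to higher values. The second Ncor1 region lies alone at -2.33, and squares mark the fifth regions of Rara and Rxrg, the 2 that passed on the other scale.

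Among the corepressor's regions, 1 fell and the others did not pass. NCOR1 is the scaffold that links unliganded receptors to the deacetylase HDAC3. The second Ncor1 region (ENSMUSG00000018501, chromosome 11, 62341341 to 62341879, 539 bp) lies inside the gene, 96.9 kb after its nearest listed start. It counted 22, 16 and 12 reads at P1 and, at P14, 5, 13 and 2, and was the only member region where P14 replicate 1 was not the highest library. On the CPM scale the mean went from 11.95 ± 4.37 to 2.42 ± 2.34 (SD, n = 3). The log2 change was -2.33 (SE 0.61), or 5.03-fold lower. The ages did not overlap, although P14 replicate 2 at 5.12 CPM lay nearer to P1 replicate 3 at 8.30 than to the other P14 libraries at 1.02 and 1.11.

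This call rested on few reads and on most libraries. It was lost without any 1 of P1 replicates 1, 2 or 3 or P14 replicates 1 or 3 (log2 changes -2.55 to -1.81, adjusted p 0.0637 to 0.289), and with the replicate number as a block (adjusted p = 0.169). Scaled to the reads outside gene-named regions the log2 change was -1.45 (adjusted p = 0.0814), and over all regions -1.65 (adjusted p = 0.214), still lower at P14 on every scale tried.

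The neighbours of that region were higher at P14 in raw reads. So was the median gene-named region, at 15, 17 and 16 reads at P1 against 54, 29 and 21 at P14. The first Ncor1 region (62337196 to 62337850) held 4, 14 and 14 reads at P1 against 38, 26 and 19 at P14. The third (62342771 to 62343469), less than 1 kb further on than the called region, held 9, 15 and 12 against 36, 21 and 16. Both were higher in raw reads in every P14 library than in every P1 library. On the CPM scale, where the second region was called, their log2 changes were 0.32 (SE 0.45) and -0.06 (SE 0.41). The fourth region (62372800 to 62373803) had the highest read density of the gene, with 22, 35 and 19 reads at P1 against 117, 48 and 20 at P14. The ages overlapped there, and the log2 change was 0.06 (SE 0.31).

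By the profile of log2(CPM + 1) over the 6 libraries, the gene-named regions of above-median abundance most like the called Ncor1 region were named for 2410004B18Rik (Pearson r = 0.998), Nfkb1 (r = 0.993) and Fam83b (r = 0.990). These correlations span 6 libraries of 2 ages and are given as a description. The region at 2410004B18Rik held 46, 36 and 31 reads in the P1 libraries against 23, 37 and 8, and its log2 change was -1.78 (adjusted p = 0.0207). The regions at Nfkb1 and Fam83b had smaller changes that did not pass, -0.49 (adjusted p = 0.548) and -0.55 (adjusted p = 0.370).

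RARA is the most widely expressed of the retinoic acid receptors. In this gene, the fifth region (ENSMUSG00000037992, chromosome 11, 98969843 to 98971461, 1619 bp) lies 5.78 kb after the nearest listed start. It had P1 counts of 15, 17 and 26 reads and P14 counts of 128, 70 and 45, so that every P14 library was above every P1 library. On the CPM scale the means were 13.6 ± 3.77 and 26.3 ± 1.26 (SD, n = 3), with the 3 P14 libraries between 25.0 and 27.6. The log2 change of 0.94 (SE 0.28, 1.92-fold) did not pass (adjusted p = 0.0828). Leaving out any 1 library gave 0.82 to 1.18.

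Scaled to the reads outside gene-named regions, that Rara region rose 3.71-fold (log2 change 1.89, SE 0.49, adjusted p = 0.0139), where 8.95% of all tested regions were called higher. Over all regions its log2 change was 1.67 (adjusted p = 0.214), and it passed there without P14 replicate 1 (1.40, adjusted p = 0.0428) and without both replicates 1 (1.26, adjusted p = 0.00992).

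The 5 other tested Rara regions had smaller changes on the CPM scale. The seventh, which starts less than 1 kb after the end of the fifth, held 43, 32 and 15 reads against 109, 55 and 29 at the later age (log2 change -0.07, SE 0.32). The sixth, between them, held 14, 9 and 13 against 68, 19 and 10 (0.15, SE 0.43). In both, the ages overlapped. The second, the densest of the gene (98956312 to 98956811), held 16, 9 and 9 against 43, 21 and 9 (-0.096, SE 0.45).

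RARG is the retinoic acid receptor best known from skin and cartilage. The third Rarg region (chromosome 15, 102249687 to 102250299, 613 bp) was named after its values were seen. It counted 2, 6 and 6 reads at P1 and, at P14, 58, 20 and 10, with no overlap between the ages. Over all regions its log2 change of 2.18 was the largest of the 42 (unadjusted p = 0.00449, adjusted p = 0.214). Among gene-named regions it was removed by the low-count filter, as were the first and sixth Rarg regions, and without the filter it had 1.38 (SE 0.54, adjusted p = 0.327). Without P14 replicate 1 the change over all regions was 1.49.

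The fifth Rarg region (102251779 to 102253013) held 9, 25 and 19 reads at P1 against 80, 46 and 29 at P14, higher in every P14 library. On the CPM scale the ages overlapped, at 12.3 ± 5.04 and 16.9 ± 1.08 (SD, n = 3, log2 change 0.44, SE 0.33). The change was 0.18 without P1 replicate 1 and 0.73 without P1 replicate 2. The second, the densest of the gene (102238569 to 102239331), held 24, 13 and 20 against 47, 20 and 25 (-0.40, SE 0.37). The sixth (102255251 to 102255992) had P1 counts of 15, 2 and 0 reads and P14 counts of 22, 20 and 10. It passed over all regions without both replicates 1 (log2 change 3.60, adjusted p = 0.00445), a fit whose P1 libraries held 2 reads in all there.

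The retinoid X receptors are the shared partners of the other receptors, and RXRG is enriched in striated muscle and brain. The fifth Rxrg region (ENSMUSG00000015843, chromosome 1, 167631803 to 167632993) is both the densest of the gene and the one with its smallest p. It counted 27, 31 and 18 reads at P1 and, at P14, 150, 61 and 50. On the CPM scale it stood at 18.0 ± 4.79 and 27.5 ± 3.35 (SD, n = 3), with no overlap between the ages. The log2 change of 0.62 (SE 0.27, unadjusted p = 0.0315) did not pass (adjusted p = 0.488). Scaled to the reads outside gene-named regions it rose 3.02-fold (1.60, SE 0.48, adjusted p = 0.0298). The fourth Rxrg region, which ends less than 1 kb before it, held 24, 12 and 23 reads against 40, 24 and 28, with overlap between the ages (log2 change -0.39, SE 0.37).

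RXRA is the main retinoid X receptor of heart muscle, and loss of its gene in mice is known to thin the ventricular wall. Its 9 regions had log2 changes of -0.33 to 0.49 on the CPM scale, 6 positive and 3 negative, and none passed. The smallest p was that of the fifth (chromosome 2, 27747933 to 27749628), with 35, 34 and 31 reads at P1 against 132, 67 and 61 at P14. On the CPM scale its ages overlapped, at 23.7 ± 2.72 and 29.1 ± 4.19 (SD, n = 3, log2 change 0.29, SE 0.25). The ninth, the densest (27759206 to 27760372), held 37, 15 and 14 reads at P1 against 141, 32 and 25 at P14. Replicate 1 was the highest library at both ages there, and without P14 replicate 1 the log2 change of 0.29 turned to -0.25.

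All 3 Rxrb regions are also assigned to other genes. The first (chromosome 17, 34028256 to 34031015) lies before the Rxrb span and is shared with Slc39a7, H2-Ke6 and Gm20427, the second with Slc39a7 and Gm20427, and the third with Col11a2. The first was the widest and densest of the 3, with 52, 81 and 99 reads at P1 against 238, 103 and 61 at P14. The ages overlapped, at 54.2 ± 14.4 and 41.1 ± 7.40 CPM (SD, n = 3). Its log2 change was -0.39 (SE 0.23, unadjusted p = 0.114), and 0.60 when scaled to the reads outside.

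Thyroid hormone receptor alpha is the main receptor of this hormone in the heart. The widest of the 4 Thra regions, the fourth (chromosome 11, 98762683 to 98764677), held 36, 45 and 32 reads against 151, 70 and 43, with a difference of 0.06 log2 units on the CPM scale (SE 0.25). The third (98760490 to 98761162), with the smallest p of the gene, held 9, 16 and 18 against 54, 17 and 13 (-0.23, SE 0.40). The second (98757745 to 98758217), the densest, held 4, 11 and 11 against 38, 19 and 10 (0.21, SE 0.49). The ages overlapped in both of these.

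Thyroid hormone receptor beta is a further receptor of the hormone, strong in liver and the pituitary. In the second Thrb region (chromosome 14, 17884753 to 17885356), the densest of that gene, there were 25, 12 and 7 reads at P1 against 32, 24 and 13 at P14. Its log2 change of -0.45 (SE 0.46) turned to 0.25 without P1 replicate 1.

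**Figure D4:**
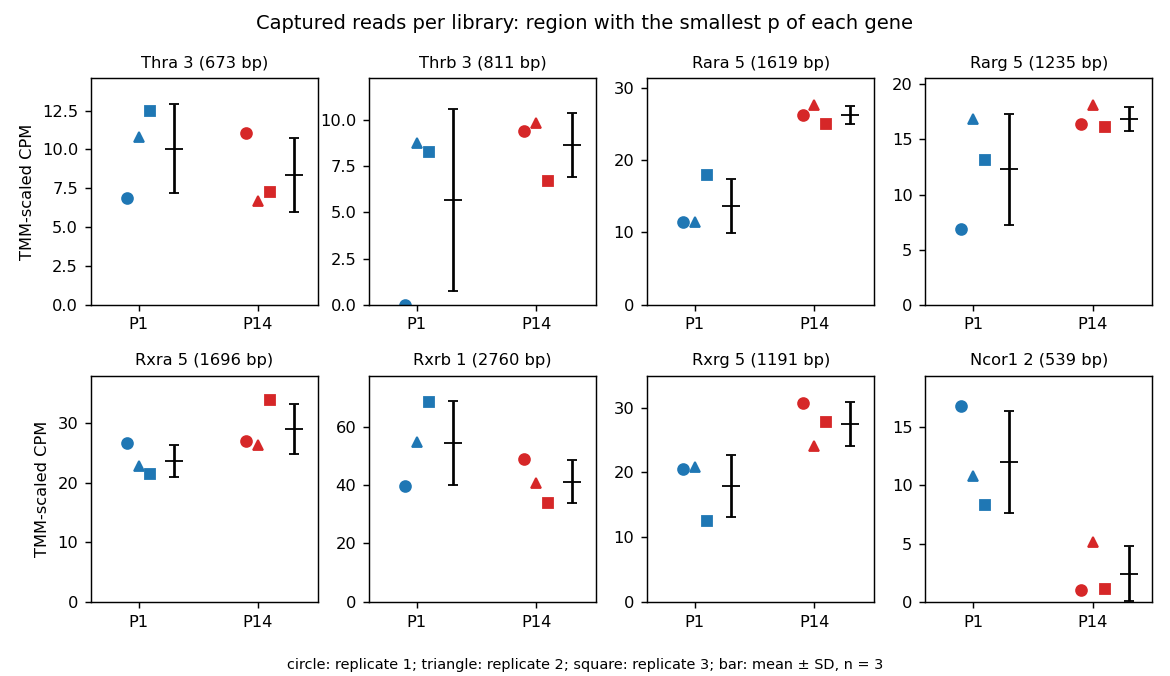
TMM-scaled CPM (vertical axis) in each library at P1 (blue) and P14 (red) for the region with the smallest p of each of 8 genes, with mean ± SD (n = 3). The ages separate at Rara, Rxrg and Ncor1, with P14 above P1 at the first 2 and below it at Ncor1, and overlap in the other 5 panels.

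Per length, the summed regions of the 8 genes were ranked at each age. At P1 they ranged from 9.78 ± 1.61 CPM per kb at Rara, 9.82 ± 0.695 at Rarg and 10.4 ± 2.13 at Thrb to 15.7 ± 2.58 at Ncor1 and 16.4 ± 2.17 at Rxrb (SD, n = 3). At P14 the range was narrower, from 10.9 ± 0.795 at Thrb to 14.6 ± 1.75 at Rxrg. Neighbours in either order differed by less than the larger of their SDs, except Thrb and Rxra at P1, at 10.4 ± 2.13 and 12.6 ± 0.934. The ends of the P1 order did not overlap, with libraries from 8.26 to 11.5 at Rara and from 15.1 to 18.9 at Rxrb. At Rarg the libraries of both ages did not overlap, at 9.82 ± 0.695 and 12.4 ± 1.23. The ages overlapped at the other 7 genes, among them Rxrb and Ncor1, whose P14 means were the lower ones, at 14.2 ± 1.54 and 13.2 ± 1.96. The sums hold all regions of a gene, and at Rarg only 3 of the 6 had passed the low-count filter. Sums were not made for genes beyond these 8, so the separation is not shown to be particular to Rarg. Among single tested gene-named regions, the ages did not overlap in 12.0% on the CPM scale. Regions of 1 gene share their libraries and are not replicates, so these sums have no test. The CpG content of the regions was not measured, so the order is one of captured reads and not of methylation. All regions in the Rxrb sum are also assigned to other genes.

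Other genes of both pathways were counted from lists, on the scale that sets gene-named regions against each other. Of 15 coregulator genes, all had regions, and 3 of 82 regions fell while 0 rose (median log2 change -0.06, against 0.00 over all tested). Over all tested regions 2.21% were called lower and 0.2% higher. With scaling to the reads outside gene-named regions, 7 of the 82 rose and 0 fell (median 0.90 against 0.94 over all tested), where 8.95% of all tested regions were called higher. The 3 that fell on the first scale lay at Nrip1, a ligand-dependent corepressor (2 regions), and at Lcor, another such corepressor. The first Nrip1 region (chromosome 16, 76362151 to 76363834) had P1 counts of 37, 48 and 47 reads and P14 counts of 37, 25 and 24. It fell from 31.0 ± 2.42 to 10.3 ± 2.91 CPM (SD, n = 3, log2 change -1.66, SE 0.29, adjusted p = 0.0149). The Lcor region fell 5.04-fold (adjusted p = 0.0189), and the other Nrip1 region fell 2.82-fold (adjusted p = 0.0324). In raw reads of the first Nrip1 region, P14 replicate 1 was level with P1 replicate 1. None of these 3 passed when scaled to the reads outside. The first and the other Nrip1 regions then had -0.75 (adjusted p = 0.170) and -0.63 (adjusted p = 0.224), and Lcor had -1.43 (adjusted p = 0.0759).

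Thyroid hormone responsive genes of the heart had 4 of 42 regions lower and 0 higher in edgeR's test, where DESeq2 called 8, from 11 of 13 genes with a row. The list's median was 0.07, positive while its called regions fell. Over all tested regions 2.21% were called lower by edgeR, and DESeq2 called 1835 of 68634 in either direction. The balance turned when scaled to the reads outside, with 14 higher and 1 lower (median 1.05). On that scale 8.95% of all tested regions were called higher, and their median was 0.94. The region with the smallest p was at Klf9, a transcription factor that thyroid hormone induces directly (chromosome 19, 23150328 to 23151006). It counted 22, 17 and 17 reads at P1 and, at P14, 6, 4 and 5, lower in every P14 library. It fell 7.58-fold, from 13.3 ± 3.0 to 1.86 ± 0.816 CPM (SD, n = 3, adjusted p = 0.0158), and still passed scaled to the reads outside (log2 change -1.99, adjusted p = 0.0356). Of the other 3, 2 lay at Atp2a2, the calcium pump of the sarcoplasmic reticulum (4.55-fold and 3.49-fold), and 1 at Adrb1, the main cardiac beta-adrenergic receptor (3.25-fold). These 3 did not pass when scaled to the reads outside, with -1.29 (adjusted p = 0.0947) and -0.87 (adjusted p = 0.169) at Atp2a2 and -0.82 (adjusted p = 0.174) at Adrb1.

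Of 8 tested regions of thyroid hormone transport and metabolism, 1 fell, at Ttr, the transthyretin gene (2.83-fold, adjusted p = 0.0304), and 0 rose, where 2.21% of all tested regions were called lower. On the scale of the reads outside, the Ttr region had -0.63 (adjusted p = 0.218), and 1 region of the list rose while 0 fell. There, 8.95% of all tested regions were called higher. Retinoid synthesis, breakdown and binding genes had 0 of 30 called by edgeR and 0 by DESeq2. Of the 30, 4 had an unadjusted p under 0.05 in edgeR's test, against 7.84% of all tested regions. The smallest p of that list was at Cyp26c1, which encodes an enzyme that degrades retinoic acid. Its region (chromosome 19, 37685569 to 37688531) held 39, 31 and 38 reads against 226, 110 and 70, higher in every P14 library (log2 change 0.75, SE 0.23, adjusted p = 0.107). It passed when scaled to the reads outside (1.73, adjusted p = 0.0223). There, 6 of the 30 regions of that list rose, against 8.95% of all tested regions. Other partners of retinoid X receptors had 0 of 55 called by either tool. Of the 55, 5 had an unadjusted p under 0.05 in edgeR's test, against 7.84% of all tested regions. The smallest p of this list was at Nr1h4, the bile acid receptor gene (log2 change -2.17, SE 0.64, adjusted p = 0.0784). In the outside scaling 7 of the 55 rose and 0 fell, where 8.95% of all tested regions were called higher.

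The calls at these lists, as at Ncor1, were lost without P14 replicate 1, when 0 gene-named regions passed edgeR's test and 3876 had an unadjusted p under 0.05. The changes themselves stayed negative, with log2 values of -2.61 at Klf9, -1.43 at the first Nrip1 region and -1.98 at Lcor, and -1.81 to -1.02 at the others and Ncor1. Klf9 and the first Nrip1 region passed in each of the other 5 fits that left out 1 library, while Lcor passed in 4, Ttr, Adrb1, the second Nrip1 region and the first Atp2a2 region in 2, and the second Atp2a2 region in 1. Among cell type markers, 9 of 53 cardiomyocyte regions were lower and 0 higher (median -0.25), 8 of them at Ryr2 and 1 at Ttn, against 2.21% lower over all tested regions. With the outside scaling, 8 of the 53 were higher and 1 lower (median 0.70). On that scale 8.95% of all tested regions were called higher, with a median of 0.94 over all. Fibroblast, endothelial and blood markers had 0 called of 13, 13 and 12 by edgeR or DESeq2, with medians of -0.22, -0.03 and 0.29. In edgeR's test 0, 0 and 1 of them had an unadjusted p under 0.05, against 7.84% of all tested regions. The part of cell makeup in the results at Ncor1, Klf9 and Nrip1 was not tested.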

How the data were processed

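The authors deposited raw read counts per region, as whole numbers. Tools named in the submitters' processing notes, without roles, are edgeR 3.2.4, BWA, bedtools and MACS, with GRCm38 (mm10) as the build. Sources used here do not give peak settings or duplicate handling. The 221524 lines hold 213957 distinct regions, the lowest with a mean of 10.0 reads per library. Coordinates are 1-based.

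Ages were compared by edgeR 4.0.16 in R 4.3.3 (quasi-likelihood fit and F test), using age alone as the model term, TMM scaling, edgeR's default low-count filter and a Benjamini-Hochberg threshold of 0.05. It was fitted over all distinct regions (209063 tested) and over gene-named regions (61355 tested). Each SE was obtained as the absolute log2 change over root F. DESeq2 1.42.0, other scalings, left-out libraries and a replicate block were alternatives.

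Members, lists and fits were chosen with earlier results of these data known. Member regions were described singly if they had the smallest p or the highest read density of their gene, or overlapped a start window. So were those that passed the threshold with all libraries in the fit over all or over gene-named regions. Genes of the lists were named where a region passed, otherwise by smallest p. The narrow Rarb regions and density ratios were added after seeing the data. Other member regions, among them the fourth Thra region and the third and sixth Rarg regions, met none of these rules. They were named as neighbours or for other traits, chosen after their values were seen.

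In simulated counts over 61355 regions 16 of 100 planted 2-fold changes were found and 82 of 100 planted 4-fold ones, and 7 of the 105 calls were false. Over 209063 regions it recovered 2 and 55 of 100. The simulated counts were drawn without a library-wide difference in capture. The median member region held 16.5 reads per library at P1 and 32.2 at P14.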

Additional observations from a re-analysis of the deposited data

How the results depend on the processing

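Over all distinct regions, 0 member regions passed, and leaving out 1 library each gave 0 to 1. The 1 was the fifth Rara region, without P14 replicate 1. Without both replicates 1, 3 passed, at Rara, Rxrg and Rarg. Calls over all regions went from 0 to 45 with DESeq2, 0 to 2028 with 1 library left out, and 7580 without both replicates 1. Among gene-named regions the 1 called member became 0 with no normalization factor, 0 without both replicates 1, 0 in the fit over all regions, 0 to 1 with 1 library left out, and 2 when scaled to the reads outside. All calls there, 1480, became 0 to 992 with 1 library left out, 308 without both replicates 1, and 5625 when scaled to the reads outside (5489 higher, 136 lower), where the median of all tested regions moved from 0.00 to 0.94. With the replicate number as a block, 0 gene-named regions and 0 members passed, and 4979 regions had an unadjusted p under 0.05. The fit over all regions was also tried with it, again with 0 called. Libraries of the same number did not deviate together (correlations -0.03, -0.04 and 0.04 for numbers 1, 2 and 3). These deviations are from means of only 3 libraries, so they cannot decide whether the numbers pair the libraries.

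Over the member regions tested among gene-named regions, 16 of 36 log2 changes were negative, against 1 of 36 when scaled to the reads outside. In the fit over all regions 1 of 42 was negative. Among the regions that met a rule for single description, signs turned in these log2 changes, none of which passed on either side. Scaled to the reads outside and over all regions they were 0.77 and 0.54 at the third Thra region, 0.49 and 0.27 at the second Thrb region, 0.91 and 0.67 at the second Rara region, 0.55 and 0.33 at the second Rarg region, and 0.60 and 0.37 at the first Rxrb region. Without both replicates 1 they were -0.18 at the second Thra region, 0.38 at the second Thrb region, -0.016 at the third Thrb region, 0.15 at the second Rara region and -0.25 at the fourth Ncor1 region. With 1 library left out the ranges were -0.071 to 0.39, -0.82 to 0.25, -0.28 to 0.32 and -0.22 to 0.31 at the second Thra, Thrb and Rara regions and the fourth Ncor1 region, and -0.25 to 0.98 at the ninth Rxra region. The cause was not tested, apart from the upward shift that scaling to the reads outside gives all regions. At the depth of these libraries, simulated 4-fold changes among gene-named regions were mostly recovered and 2-fold ones mostly not. The simulated counts had no library-wide difference in capture, so these rates may not hold for the real libraries. A region that did not pass is not shown to be unchanged.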
